A study of Mus musculus with 28 samples.

Results

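The genes described here are 9 markers of microglia, the resident immune cells of the brain, and were chosen by symbol for that role: *Csf1r*, *Cx3cr1*, *P2ry12*, *Tmem119*, *Aif1*, *C1qa*, *C1qb*, *C1qc* and *Ctss*. All 9 of 9 were found among the 49477 genes listed in both count tables of the study, and all 9 were among the 16266 genes tested, which averaged 10 counts or more per mouse. Microglia at rest survey the tissue with fine processes and keep a set of receptors switched on, and this homeostatic set usually falls when the cells become activated. They are also the main source of the complement protein C1q in the brain, which tags synapses and debris for removal. Microglia respond to alcohol in many settings, and the amygdala takes part in alcohol drinking.

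RNA was measured by paired-end sequencing of bilateral amygdala micropunches, 1 mm in diameter and aimed at the basolateral and central nuclei, from 28 adult female C57BL/6J mice bought at 7 weeks of age in 2 batches. All mice were of this inbred strain, lived alone in the cage and drank from a pair of tubes for 28 days. The Water group (4 mice in batch 1, 6 in batch 2) was offered only water, the Acute group (4 and 5) was offered 20% ethanol beside water on day 28 alone, and the Chronic group (3 and 6) was offered it intermittently over the whole period, and tissue was taken on day 29. Each library came from a mouse of its own, and no males, other doses or times after withdrawal are in these data.

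Library totals ran from 20004380 to 22569562 counts (median 20720919.5), and the 9 genes together held 0.0299% to 0.0361% of the counts of a mouse. Single counts ran from 35 to 2161, and 8 of the 9 genes had at least 100 counts in every mouse, with *Aif1* as the exception. The punch is a mixture of cells, so fewer microglia and less RNA per microglial cell cannot be told apart. Markers of blood leukocytes were close to absent, since none of 8 reached a mean of 10 counts and their summed level stayed between 0.706 and 1.79 CPM (here counts scaled to the library total alone) in all groups. Of 7 markers of border macrophages, the microglia-like cells of the meninges and vessels, 3 reached that mean, and the 7 summed to 2.48 to 5.10 CPM in Water, 3.48 to 5.19 in Acute and 3.24 to 6.08 in Chronic mice. No gene on either list was at 0 in all mice.

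The 3 C1q chains are encoded side by side on the minus strand of chromosome 4 (GRCm38), with *C1qb* at chr4:136880129-136886187, *C1qc* at chr4:136889804-136893065 and *C1qa* at chr4:136895917-136898803. *Ctss* lies at chr3:95526786-95556403, *P2ry12* at chr3:59216272-59262871, *Tmem119* at chr5:113793729-113800516, *Cx3cr1* at chr9:119901616-120069879 and *Aif1* at chr17:35170991-35176068. *Csf1r* shares 873 exonic bases with *Hmgxb3* on the other strand, *Cx3cr1* shares 78 with *Gm33858* and *P2ry12* 9 with *Med12l*. Whether counting used the strand is not given in the sources used here, so reads in these stretches could belong to either gene.

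Promoter windows are shown for the genes with an entry whose levels varied with at least 1 other of the 9 genes between mice, as described below. RefSeq windows of 300 bases (GRCm38.p6, 250 before to 50 after the start) were matched for 6 of the 9 genes, with no entry for *Csf1r*, *Tmem119* and *C1qa*. Capitals mark the core recognised by PU.1, a transcription factor that myeloid cells depend on, searched as GAGGAA and as its reverse complement TTCCTC.
C1qb, chr4:136886151-136886450, minus strand: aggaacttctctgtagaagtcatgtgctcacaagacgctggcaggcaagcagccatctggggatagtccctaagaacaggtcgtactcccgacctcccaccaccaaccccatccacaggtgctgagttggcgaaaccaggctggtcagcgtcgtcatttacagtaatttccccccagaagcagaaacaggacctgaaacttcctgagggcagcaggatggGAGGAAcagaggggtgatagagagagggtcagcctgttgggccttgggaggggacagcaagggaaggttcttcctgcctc
C1qc, chr4:136892865-136893164, minus strand: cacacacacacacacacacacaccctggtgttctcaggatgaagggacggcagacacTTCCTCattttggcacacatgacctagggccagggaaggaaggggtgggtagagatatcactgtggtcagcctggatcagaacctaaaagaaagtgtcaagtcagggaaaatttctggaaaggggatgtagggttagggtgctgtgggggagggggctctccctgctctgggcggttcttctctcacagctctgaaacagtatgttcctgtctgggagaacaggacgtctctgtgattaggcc
Ctss, chr3:95526536-95526835, plus strand: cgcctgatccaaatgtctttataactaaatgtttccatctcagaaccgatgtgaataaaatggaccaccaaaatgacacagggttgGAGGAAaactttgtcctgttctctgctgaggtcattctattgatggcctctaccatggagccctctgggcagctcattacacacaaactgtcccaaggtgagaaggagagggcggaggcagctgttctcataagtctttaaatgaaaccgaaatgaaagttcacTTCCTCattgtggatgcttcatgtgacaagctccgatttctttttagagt

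The match began at base 221 of the *C1qb* window and base 58 of the *C1qc* window, and *Ctss* held matches at bases 87 and 251, counted from the upstream end. *Aif1* also held 1 match, and none was found in the windows of *Cx3cr1* and *P2ry12*. Of all 32851 windows of this length in the table, 28.3% held at least 1 match and 4.8% held at least 2. These matches describe letters and not binding.

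The level of each gene was first compared per length in the Water mice, as CPM divided by the kilobases of annotated exon, since a longer gene collects more counts. CPM of the 9 genes and of the other genes named from here on are scaled by edgeR's TMM factors as well as by library total. *Ctss*, the lysosomal protease cathepsin S, was highest at 31.8 ± 2.08 CPM per kb in batch 1 (SD, n = 4) and 31.1 ± 1.78 in batch 2 (SD, n = 6). *C1qb* and *C1qa*, the B and A chains of C1q, followed at 26.1 ± 1.44 and 25.9 ± 1.83 in batch 1 and at 29.7 ± 4.18 and 29.2 ± 2.50 in batch 2. The ranges of the 2 chains overlapped in both batches, whereas that of *Ctss* stood above *C1qb* in batch 1 and overlapped it in batch 2.

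A middle group was formed by *Csf1r*, the receptor for the survival factors CSF1 and IL-34, *P2ry12*, the receptor that steers microglial processes toward ADP, *C1qc*, the C chain of C1q, and *Cx3cr1*, the receptor for neuronal fractalkine. In batch 1 their means were 13.9, 15.03, 12.1 and 11.4 CPM per kb, and in batch 2 they were 17.2, 14.3, 14.9 and 11.3. Their order differed between the batches, with *P2ry12* above *Csf1r* in batch 1 and below it in batch 2. Neighbours overlapped in at least 1 batch, except *P2ry12* and *Cx3cr1*, which were neighbours in batch 2 and overlapped in neither. *Tmem119*, a membrane protein used to separate microglia from blood macrophages, was lower at 5.85 ± 0.39 and 7.23 ± 0.48 CPM per kb. *Aif1*, the gene of the actin-bundling protein IBA1, was lowest at 1.84 ± 0.29 and 2.04 ± 0.30. The ranges of *Tmem119* and *Aif1* overlapped with no other of the genes in either batch. Lengths are those of all annotated exons, and which isoforms were used was not analysed here.

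**Figure D1:**
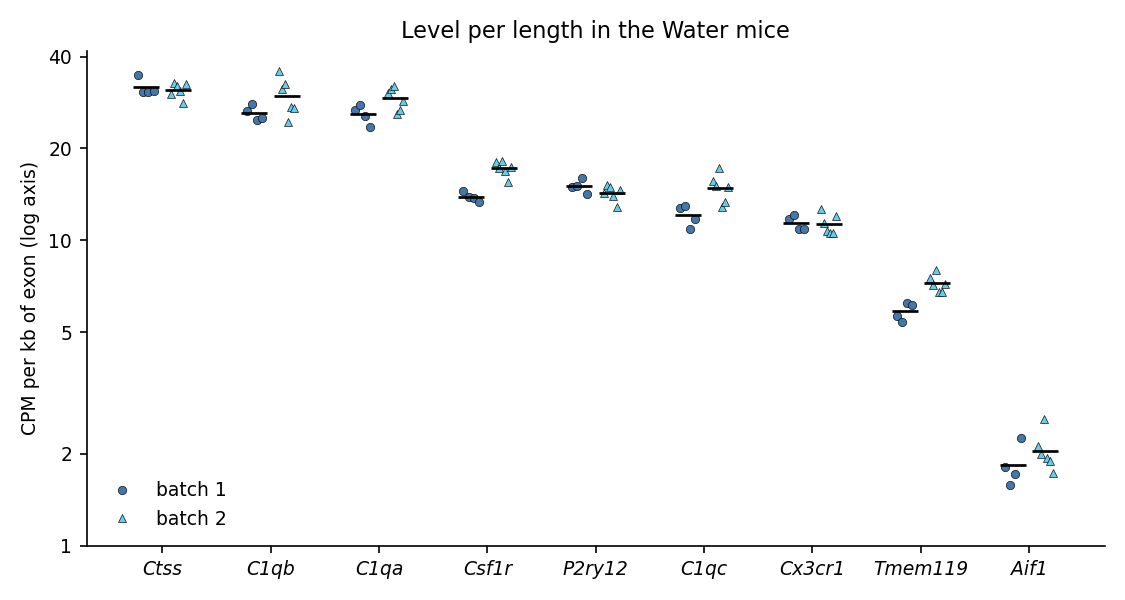
Level per length of the 9 genes in the 10 Water mice, in CPM per kb of exon on a log axis. Circles are batch 1 and triangles batch 2, and black lines are means. Means ran from 31.8 for *Ctss* to 1.84 for *Aif1* in batch 1.

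Batch moved 5 of the 9 genes past the threshold. *Csf1r* was higher in batch 2 than in batch 1, at 100.5 ± 5.30 against 83.8 ± 3.57 CPM (SD, n = 17 and 11, 1.201-fold, edgeR adjusted p = 4.38e-09). *Tmem119* was 1.254-fold (edgeR adjusted p = 3.06e-07), *C1qc* 1.19-fold (4.70e-05) and *C1qb* 1.14-fold higher (0.00386), and *Ctss* was 0.923-fold (0.00403). *Cx3cr1*, *P2ry12*, *Aif1* and *C1qa* did not pass. Among all genes 46.2% passed between the batches, 22% higher and 24.3% lower in batch 2, beside 4 of 9 higher and 1 of 9 lower here. The 2 tables were made for separate cohorts and list partly different gene identifiers, and the part of that in these differences was not tested. The group comparisons below therefore carry batch as a covariate, and levels by mouse are given as batch-adjusted CPM, in which each batch's mean log2 level was set to the mean over all mice.

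The first comparison asks whether a single day of drinking changed the microglial genes. None of the 9 passed in Acute against Water mice by edgeR's quasi-likelihood test, where 0% of all genes passed. At an unadjusted p under 0.05 there was 1 of 9, *Csf1r*, against 9.52% of all genes, and DESeq2 with batch as a covariate called 0, with no adjusted p given for *Aif1*. The log2 fold changes ran from -0.075 to 0.075 with a median of 0.014, beside a median of 0.0011 over all genes, and 6 were positive and 3 negative. That median was 0.099 in batch 1 alone, 0.0020 in batch 2 alone and -0.0086 with the striatal covariate described below. It ran from -0.0048 to 0.046 when 1 mouse was left out, and was below 0 without Water mouse 43, Water mouse 4 or Acute mouse 4.

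*Csf1r* (chr18:61100598-61132149) had the lowest p. Its level ran from 83.8 to 97.8 batch-adjusted CPM (median 91.8) in Water, in Acute mice from 90.1 to 102 (median 96.3) and in Chronic mice from 86.8 to 98.0 (median 94.8). The Acute mice sat toward the upper end, with 7 of 9 above the Water mean, and the groups overlapped. The log2 fold change was 0.070 ± 0.032 (SE), a fold of 1.05 (95% interval 1.003 to 1.098, edgeR p = 0.0372, adjusted p = 0.502), with differences of 0.11 in batch 1 and 0.041 in batch 2.

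The C1q chains did not pass in Acute mice. *C1qc* ran from 23.3 to 31.3 batch-adjusted CPM (median 27.2) in Water, in Acute mice from 22.9 to 30.7 (median 28.2) and in Chronic mice from 24.6 to 29.6 (median 27.6). The ranges overlapped almost fully, although 8 of 9 Acute mice were above the Water mean (log2 fold change 0.075 ± 0.054 SE, edgeR adjusted p = 0.670). *C1qb* ran from 25.4 to 37.1 (median 30.5) in Water, in Acute mice from 27.4 to 37.2 (median 31.7) and in Chronic mice from 29.7 to 38.3 (median 30.9), with a log2 fold change of 0.069 ± 0.063 in Acute mice (edgeR adjusted p = 0.747). *C1qa* ran from 25.6 to 32.6 (median 29.01), from 23.4 to 32.8 (median 30.6) and from 26.2 to 33.6 (median 28.1) in the same order, and its log2 fold change in Acute mice was 0.014 ± 0.058, with 5 of 9 mice above the Water mean. The sign of *C1qa* was not stable, with differences of 0.14 in batch 1 and -0.087 in batch 2, and removing single mice turned it 4 times. No group of mice stood apart for any chain.

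The remaining receptors, *Tmem119* and *Aif1* did not pass either. *Cx3cr1* had medians of 50.2, 51.7 and 50.4 batch-adjusted CPM in Water, Acute and Chronic mice and ran from 44.5 to 57.6 over all of them. *P2ry12* ran from 33.6 to 39.6 (median 37.2) in Water, in Acute mice from 33.2 to 38.6 (median 36.3) and in Chronic mice from 32.6 to 39.8 (median 34.2). The *P2ry12* medians of both drinking groups were thus below that of Water, with log2 fold changes of -0.048 ± 0.040 (SE) in Acute and -0.069 ± 0.041 in Chronic mice (edgeR adjusted p = 0.720 and 0.564), and 2 and 3 of 9 mice above the Water mean. *Tmem119* ran from 14.4 to 17.1 in Water, 14.6 to 16.0 in Acute and 13.3 to 17.6 in Chronic mice, with medians of 15.3, 15.3 and 14.9. *Aif1* ran from 2.61 to 3.97, from 1.67 to 3.87 and from 2.22 to 3.45. It had the widest intervals, 0.790 to 1.14 for the fold in Acute and 0.762 to 1.10 in Chronic mice.

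**Figure D2:**
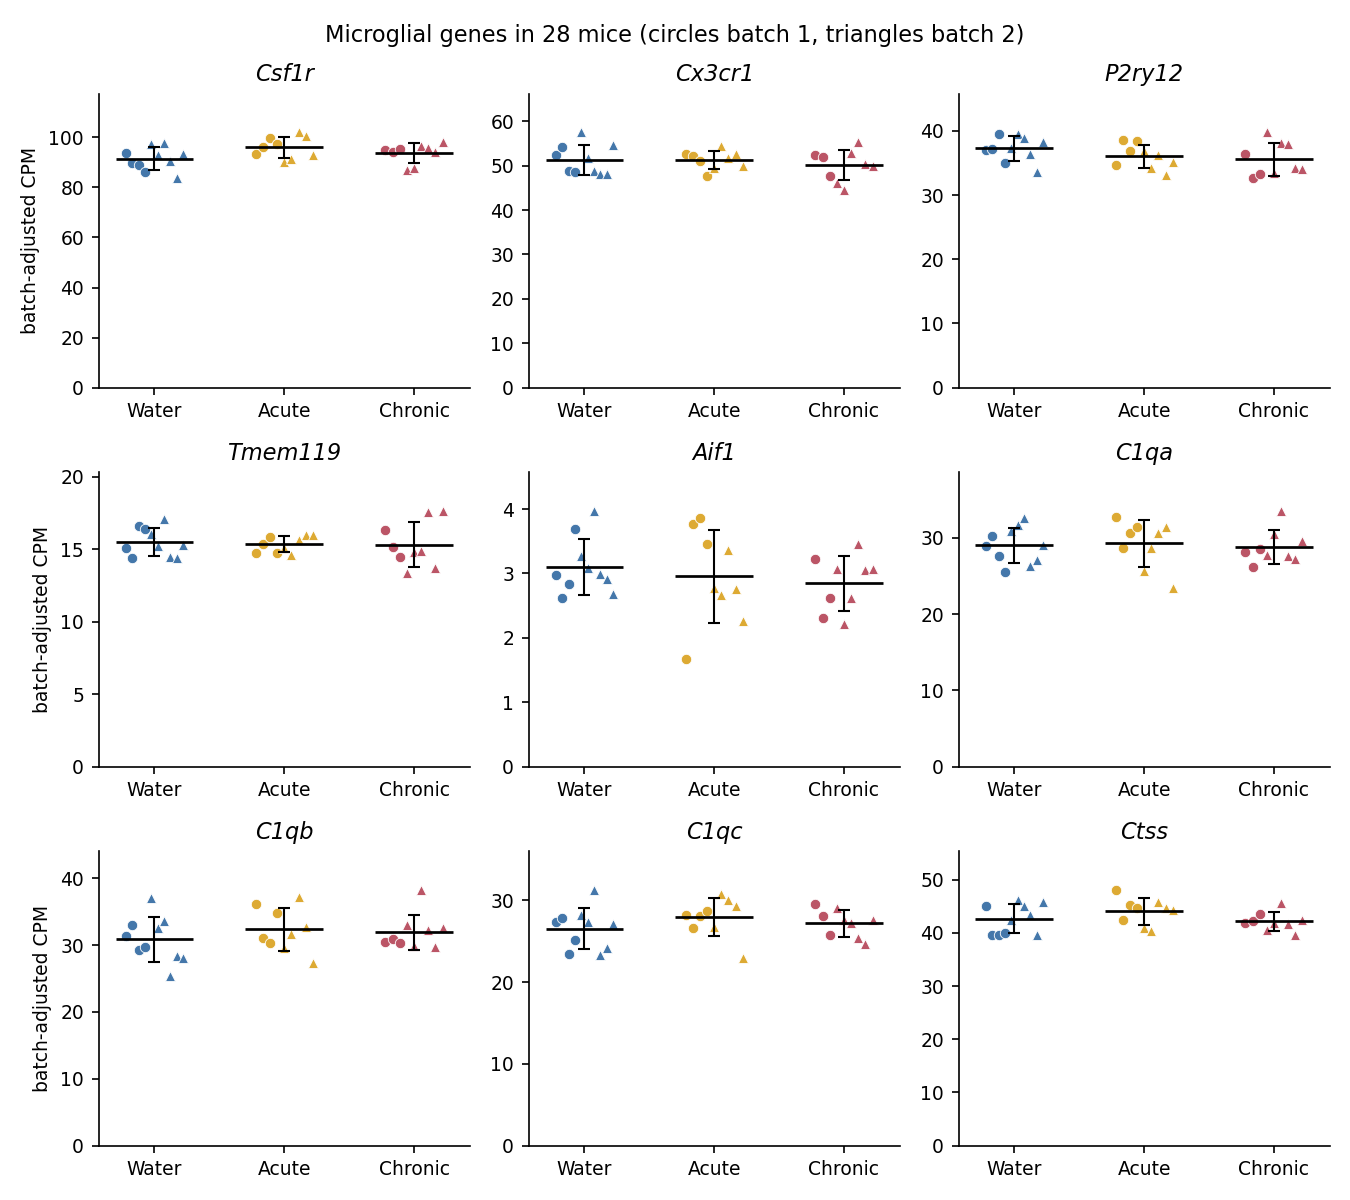
Batch-adjusted CPM of each gene in every mouse by drinking group, with circles for batch 1, triangles for batch 2 and black lines for the mean ± SD (n = 10 Water, 9 Acute and 9 Chronic). The 3 groups overlap in every panel, and the lowest *Aif1* value, 1.67, is an Acute mouse.

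The second comparison asks the same of repeated drinking. None of the 9 genes passed in Chronic against Water mice (edgeR's quasi-likelihood test), where 0.0184% of all genes passed. At an unadjusted p under 0.05 there were 0 of 9, against 10.5% of all genes, and DESeq2 with batch as a covariate called 0. The log2 fold changes ran from -0.13 (*Aif1*) to 0.048 (*C1qb*) with a median of -0.017, beside 0.0022 over all genes, and 3 were positive and 6 negative. Leaving out 1 mouse moved this median between -0.032 and 0.00097, the latter without Water mouse 3, and it was 0.0056 with the striatal covariate. The 95% intervals of the fold of the 8 genes other than *Aif1* lay between 0.900 and 1.13 in Chronic and between 0.913 and 1.148 in Acute mice, and the interval of each gene was narrower than these outer limits.

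*Ctss*, which microglia use to cleave the invariant chain and extracellular fractalkine, had the lowest p between the drinking groups. It ran from 39.6 to 46.1 batch-adjusted CPM (median 42.9) in Water, in Acute mice from 40.3 to 48.1 (median 44.6) and in Chronic mice from 39.6 to 45.7 (median 41.9). Only 1 of 9 Chronic mice was above the Acute mean, and the ranges overlapped (log2 fold change -0.064 ± 0.039 SE, edgeR p = 0.114, adjusted p = 0.998). In Chronic against Acute mice none of the 9 genes passed and 0 had an unadjusted p under 0.05, against 0% and 4.44% of all genes by edgeR, and DESeq2 also called 0. All 9 log2 fold changes were negative, from -0.0022 to -0.064, with a median of -0.034 beside -0.00089 over all genes. Within the batches the signs were mixed, with *Tmem119* positive in batch 1 and *P2ry12*, *Aif1*, *C1qa* and *C1qb* positive in batch 2, and the medians were -0.083 and -0.012. The median ran from -0.052 without Acute mouse 5 to -0.012 without Chronic mouse 38. With 7 striatal neuron genes as a covariate, described below, that median was 0.00339 and 3 of the 9 stayed negative. Both comparisons with Water share the 10 Water mice.

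**Figure D3:**
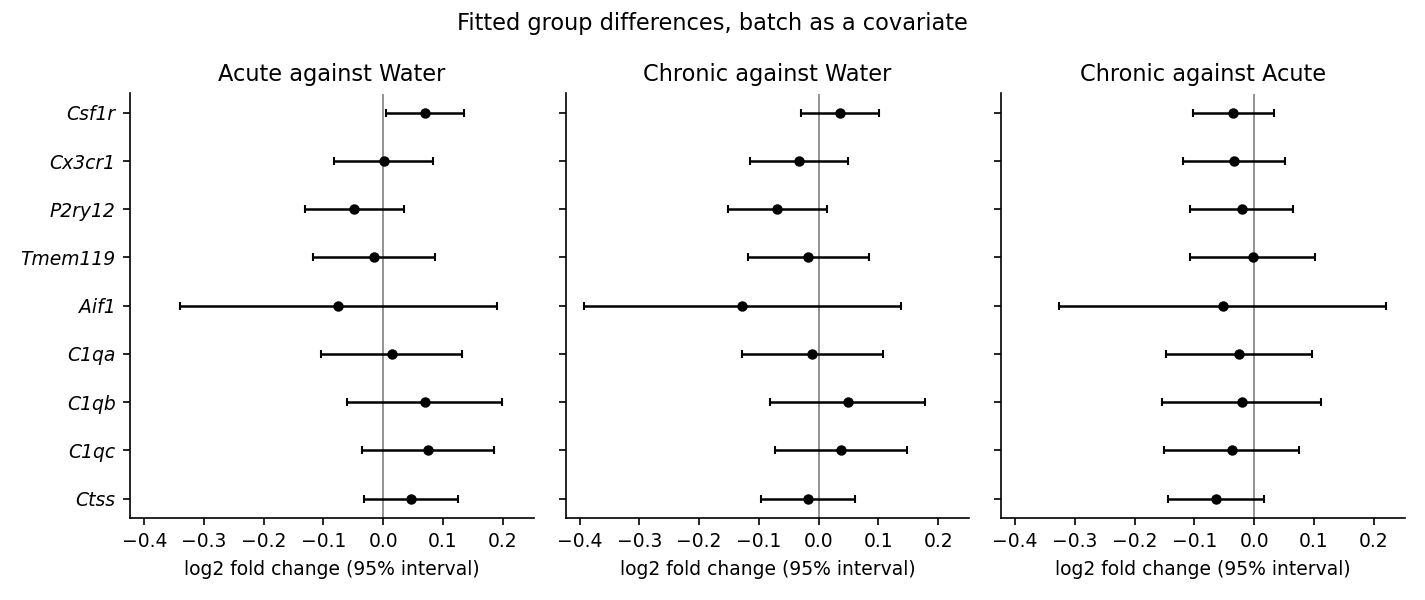
Fitted log2 fold changes of the 9 genes with 95% intervals in the 3 comparisons, from edgeR with batch as a covariate. Points lie between -0.13 and 0.075, and the interval of *Csf1r* in Acute against Water is the one that leaves out 0, before adjustment over all genes.

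Whether a drinking difference itself differed between the batches was tested as an interaction. None of the 9 genes passed for Acute or for Chronic against Water in edgeR, where 0% and 0.00615% of all genes passed, and 0 of 9 had an unadjusted p under 0.05 in either, against 4.13% and 6.15%. The nearest was *Ctss* in Acute mice, with a difference from Water of 0.13 in batch 1 and -0.018 in batch 2 (edgeR interaction p = 0.05001, adjusted p = 0.999). *C1qa* had 0.14 and -0.087 (p = 0.0566 in edgeR, adjusted p = 0.999). In batch 1, *Ctss* ran from 44.4 to 50.5 CPM in the Acute and from 41.6 to 47.4 in the Water mice, and *C1qa* from 27.5 to 31.4 and from 24.5 to 28.9. These ranges overlapped.

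The spread between mice was small for most of the genes. The biological coefficient of variation estimated by edgeR was 4.76% for *Csf1r*, 5.30% for *Ctss*, 5.51% for *P2ry12*, 5.75% for *Cx3cr1*, 5.99% for *Tmem119*, 7.49% for *C1qc*, 8.12% for *C1qa* and 9.08% for *C1qb*, beside a median of 8.16% over all genes tested. *Aif1* had 15.6%, and its mean of 59.4 counts alone gives a counting error of 12.98%. The estimates for the C1q chains thus lay above those for the receptors and *Tmem119*, at counts that give a counting error of 3.91% to 4.22%.

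That variation was shared among the C1q chains. Over the 28 mice, with batch means removed, *C1qa* and *C1qb* correlated at Pearson's r = 0.742 (Spearman's rho = 0.762, permutation within batches p = 1e-05, the smallest that 100000 resamples give, adjusted p = 0.00036 over 36 pairs). *C1qb* and *C1qc* had r = 0.654 (rho = 0.711, permutation adjusted p = 0.00459), and *C1qa* and *C1qc* r = 0.639 (rho = 0.604, permutation adjusted p = 0.00459). Without the 2 mice farthest from the median these were 0.672, 0.653 and 0.601. Within batch 1 and batch 2 they were 0.787 and 0.737, 0.546 and 0.685, and 0.462 and 0.703. The chains therefore varied together between mice in both batches.

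*Ctss* varied with *Csf1r* (r = 0.613, rho = 0.567, permutation adjusted p = 0.00459, 0.656 and 0.602 within the batches, 0.525 without the 2 farthest mice). It also varied with *C1qa* (r = 0.545, rho = 0.654, permutation adjusted p = 0.0225, 0.685 and 0.479 within the batches, 0.669 without the 2 farthest mice). These 5 pairs passed of 36. How many pairs of other genes would pass was not computed, so the count is not set against a background. With the mean of 7 striatal neuron genes removed, as described below, the r of *Ctss* fell to 0.314 with *Csf1r* and 0.277 with *C1qa*. By rank, *Csf1r* passed with *C1qa* and *C1qb* as well (rho = 0.546 and 0.525, permutation adjusted p = 0.0254 and 0.0342). Pearson's r of these pairs, 0.491 and 0.499, fell to 0.175 and 0.282 with the striatal mean removed. Of all 36 correlations, 35 were positive, with a median of 0.238, which was 0.113 in batch 1 and 0.334 in batch 2. The share of positive pairs and the median were not computed for pairs of other genes. *Ctss* did not pass with *C1qb* or *C1qc* (r = 0.360 and 0.303, permutation adjusted p = 0.161 and 0.281). The lowest median r to the other genes were those of *Tmem119*, *P2ry12* and *Aif1* (0.123, 0.137 and 0.083), and none of their pairs passed, nor did any of *Cx3cr1* (median 0.237). Their highest single values were 0.465 between *P2ry12* and *Aif1* and 0.401 between *Tmem119* and *Csf1r*, and whether these genes differ from the rest in this respect was not tested. *Tmem119* was negative with all 3 chains in batch 1 (-0.525, -0.647 and -0.363) and positive in batch 2 (0.232, 0.272 and 0.176). The genes of a mouse share its library and its scaling.

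**Figure D4:**
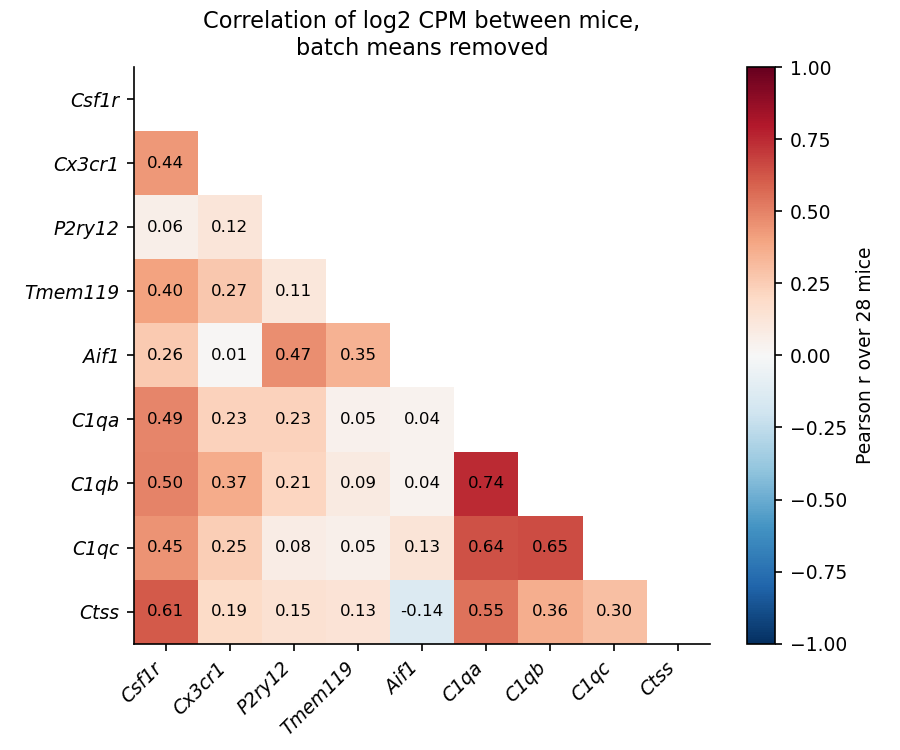
Pearson's r of log2 CPM between each pair of the 9 genes over 28 mice, batch means removed. The block of the C1q chains holds 0.742, 0.654 and 0.639, and the lowest value is -0.140 between *Aif1* and *Ctss*.

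The C1q protein is built from equal numbers of its A, B and C chains. Per length, the ratio of *C1qa* to *C1qb* RNA had a median of 1.003 in batch 1 (0.920 to 1.10) and 0.931 in batch 2 (0.840 to 1.06). The ratio of *C1qc* to *C1qb* was lower, with medians of 0.468 (0.428 to 0.533) and 0.489 (0.407 to 0.555). Per length, *C1qc* RNA thus stayed below *C1qb* RNA in all 28 mice, and the ranges of this ratio in Water, Acute and Chronic mice overlapped within each batch. The size of this gap depends on the annotated exon lengths, 1931 bases for *C1qc* and 1088 for *C1qb*, and isoforms were not analysed. Before division by length, the means of the Water mice were 26.5 CPM for *C1qc* and 30.8 for *C1qb*.

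Other genes of the same biology were taken from lists chosen for their function, and none was called in any of the 3 drinking comparisons by edgeR. The counts at an unadjusted p under 0.05 given for them stand beside 9.52% of all genes in Acute and 10.5% in Chronic against Water. Of 30 other genes listed as homeostatic microglia genes, all were tested, 2 were lower in Chronic mice at an unadjusted p under 0.05 and 0 passed that level in Acute mice, with medians of 0.038 and -0.016. Whether each gene of this list marks the homeostatic state in these mice was not tested. The 2 lower genes were *Fcrls*, an Fc receptor-like gene (log2 fold change -0.14 ± 0.055 SE, edgeR adjusted p = 0.339, 0 of 9 Chronic mice above the Water mean), and *Itgam*, the integrin CD11b (-0.12 ± 0.054, adjusted p = 0.434, 1 of 9).

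Of 7 ligands of microglial receptors, all were tested and 0 had an unadjusted p under 0.05 against Water. *Cx3cl1*, fractalkine, was the highest per length at 184 CPM per kb and had log2 fold changes of -0.0016 ± 0.037 and -0.00085 ± 0.037. *Cd47*, a signal against engulfment, had 0.025 ± 0.048 and -0.095 ± 0.048, and *Tgfb1*, which maintains the homeostatic state, had 0.072 ± 0.067 and 0.11 ± 0.067. The medians over the 7, which include ligands of receptors outside the 9 genes, were 0.012 and 0.026.

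Of 15 complement genes outside C1q, all were tested, and the unadjusted p was under 0.05 for 1, lower in Acute mice, and for 0 in Chronic mice, with medians of -0.060 and -0.049. That gene was *C1s1*, a protease of the C1 complex that C1q binds (-0.48 ± 0.19 in Acute mice, edgeR adjusted p = 0.468), at a mean of 15.6 counts. *Csmd1*, a neuronal complement inhibitor, had -0.13 ± 0.068 and -0.094 ± 0.068, and *Calr*, calreticulin, the highest per length, 0.015 ± 0.033 and 0.020 ± 0.033. Of 13 lysosomal proteases, inhibitors and partners of cathepsin S, 11 were tested and 0 had an unadjusted p under 0.05, with medians of 0.039 and 0.030. *Cst3*, cystatin C, which inhibits cathepsins and was the highest per length at 449 CPM per kb, had 0.093 ± 0.047 and 0.089 ± 0.047, with 7 and 8 of 9 mice above the Water mean, and *Lgmn*, legumain, had 0.070 ± 0.036 and 0.026 ± 0.036.

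Genes that rise in activated microglia were partly too low to test, with 12 of 20 reaching a mean of 10 counts. Among the 8 that did not were *Tnf* with a mean of 0.536 counts, *Il1b* with 0.821, *Clec7a* with 3.89 and *Itgax* with 6. At an unadjusted p under 0.05, 2 of the 12 were higher and 1 lower in Acute mice, and 1 was higher and 1 lower in Chronic mice, with medians of 0.044 and 0.074. *Spp1*, osteopontin, had a log2 fold change of 0.58 ± 0.22 in Acute mice (edgeR p = 0.0141, adjusted p = 0.462, 9 of 9 mice above the Water mean, 1.01 in batch 1 and 0.27 in batch 2) and 0.13 ± 0.23 in Chronic mice (0.88 in batch 1 and -0.31 in batch 2). *Apoe*, a lipid carrier made mainly by astrocytes and the highest of the list per length, had 0.087 ± 0.041 and 0.084 ± 0.041. *Lpl*, lipoprotein lipase, had -0.19 ± 0.073 and -0.17 ± 0.073 (edgeR adjusted p = 0.462 and 0.416), with 1 and 0 of 9 mice above the Water mean. *Spp1*, *Apoe* and *Lpl* are also expressed by cells other than microglia.

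The mean of the 9 genes, each standardized and with batch means removed, was used to place the mice on 1 scale. It ran from -1.13 to 1.05 in Water, in Acute mice from -0.813 to 0.904 and in Chronic mice from -0.799 to 0.679, with medians of 0.036, 0.305 and -0.415. The lowest and the highest mouse were both Water mice. Water mouse 5 was below its batch mean for all 9 genes and Acute mouse 3 above it for all 9. Over the 28 mice this mean correlated with that of the 30 other homeostatic microglia genes at r = 0.793 (rho = 0.777, 0.702 and 0.827 within the batches, 0.755 without the 2 farthest mice). By gene, r with those 30 ran from 0.122 for *Tmem119* and 0.179 for *Aif1* through 0.310 for *Cx3cr1*, 0.441 for *C1qc* and 0.528 for *P2ry12* to 0.746 for *Ctss*. Microglial genes that the choice did not use thus varied with the mean of the 9. Correlations of the mean are given as descriptions, without p-values, since the 9 genes were chosen with results of these mice known. The p-values of the pairs above carry the same limit.

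The same mean was also set beside markers of other cells. It correlated at r = 0.586 with 3 border macrophage genes (rho = 0.664), 0.474 with 8 endothelial genes (0.411), 0.404 with 9 oligodendrocyte genes (0.433) and 0.315 with 10 general neuronal genes (0.321). Without the 2 farthest mice these were 0.640, 0.496, 0.411 and 0.108, so the neuronal value rests on those mice. The values were -0.015 for 10 astrocyte genes, -0.055 for 7 genes of oligodendrocyte precursors and -0.155 for 5 red blood cell genes. Astrocyte and precursor markers thus showed little relation to the microglial genes.

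None of the 10 genes most like the microglial mean was on a list of microglial genes. Of 11715 genes averaging 100 counts or more, the highest r were those of *Ngef* (0.814), *Hpca* (0.811), *Arpp19* (0.796), *Gabrd* (0.788), *Ndfip2* (0.782), *Map6d1* (0.781), *Car11* (0.777), *Cbr3* (0.771), *Arpp21* (0.770) and *Rgs14* (0.770). *Hpca* encodes the neuronal calcium sensor hippocalcin, *Gabrd* the delta subunit of the GABA-A receptor, and *Arpp21* a phosphoprotein abundant in the striatum. Only 1 of the 25 other homeostatic microglia genes in this comparison was among the 100 highest. Over all genes compared, r with the microglial mean had a median of 0.0055 and a lowest value of -0.785.

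A list of 7 striatal neuron genes (*Drd1*, *Drd2*, *Adora2a*, *Ppp1r1b*, *Penk*, *Rgs9* and *Pde10a*) was therefore added after these values were seen, since the striatum lies next to the amygdala. Whether their RNA came from striatal tissue or from the central or basolateral nuclei in the punch was not tested. The list correlated with the microglial mean at r = 0.716 (rho = 0.738, 0.675 and 0.816 within the batches, 0.730 without the 2 farthest mice), and each of its genes did so at 0.628 to 0.736. By gene the relation was strongest for *Csf1r* (0.671), *Ctss* (0.650), *Cx3cr1* (0.603), *C1qa* (0.574) and *C1qc* (0.554), and lowest for *P2ry12* (0.175), *Tmem119* (0.093) and *Aif1* (0.052). The value of *Tmem119* joins -0.605 in batch 1 and 0.483 in batch 2. A list of 3 choroid plexus genes, added likewise, gave r = -0.517. The striatal mean ran from -2.13 to 1.56 in Water, in Acute mice from -0.857 to 1.2001 and in Chronic mice from -1.38 to 0.779, with medians of 0.654, 0.438 and -0.445.

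With the striatal mean removed from every gene, the median of the 36 correlations was 0.097 in place of 0.238, and 27 were positive. The C1q chains then had r of 0.655, 0.536 and 0.472, beside the lower values of *Ctss* given above. The microglial mean and the other homeostatic genes then correlated at 0.632. With the striatal mean as a further covariate in edgeR, 0 of the 9 genes passed in any drinking comparison, and the log2 fold change of *Csf1r* was 0.056 in Acute (edgeR p = 0.0345, adjusted p = 0.459) and 0.057 in Chronic mice (edgeR p = 0.0312, adjusted p = 0.408). The part of the striatal genes in the differences between mice was not otherwise tested.

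**Figure D5:**
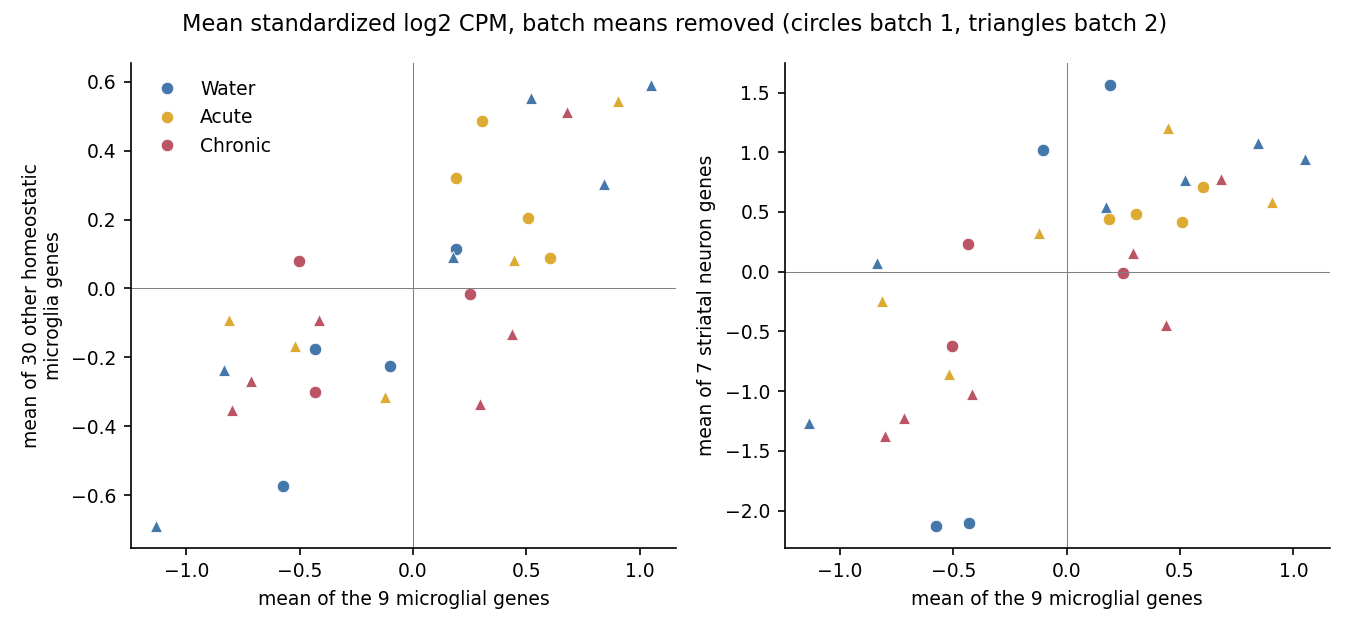
Mean standardized log2 CPM of the 9 genes (x axis) against that of 30 other homeostatic microglia genes (left) and 7 striatal neuron genes (right) in 28 mice, batch means removed, with circles for batch 1 and triangles for batch 2. Both rise with the microglial mean (r = 0.793 and 0.716), and mice of the 3 drinking groups are mixed along it.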

How the data were processed

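Amygdala RNA of 28 mice was analysed from 1 count table per batch. Per the paper's methods and the labels, the authors aligned reads with Salmon (0.14.1 in the submitters' processing notes) to a GRCm38 transcriptome, and they deposited estimated counts per gene as whole numbers, before batch adjustment. Groups came from the labels. Tables were joined by identifier and named with GENCODE M21, and genes averaging 10 counts or more were tested. Groups were compared in a single quasi-likelihood fit (edgeR 4.0.16, R 4.3.3, TMM) that carried batch as a covariate, with Benjamini-Hochberg adjustment and a threshold of 0.05. Correlations used log2 CPM (prior count 2) with batch means removed and 100000 permutations within batches. The pipeline was tested on simulated data. The closest of 55 pairs of mice in 1 group and batch differed by more than counting noise (chi-square per gene 3.90).

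The 9 genes and the lists were chosen with earlier results of these data known. In each list the 2 genes of lowest p against Water and the highest per length were named. 1 gene that this rule names is not reported here. *Tnf*, *Il1b*, *Clec7a*, *Itgax*, the striatal and choroid plexus lists and the comparison of means with marker lists were chosen after values were seen. Alternatives were DESeq2 (1.42.0), ComBat-seq (sva 3.50.0) then DESeq2 as in the methods, other normalizations and filters, each batch alone, a replicate block, only the groups compared, and leaving out each mouse. The counting error is largest for *Aif1*, at a mean of 59.4 counts.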

Additional observations from a re-analysis of the deposited data

Results flagged for a closer look

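In 2 of 27 combinations of gene and drinking group a single mouse stood apart from its group by Dixon's test, which flags about 1 in 20 groups by chance. *C1qb* was highest in Chronic mouse 3, at 38.3 batch-adjusted CPM, where the other Chronic mice ran from 29.7 to 32.9. *C1qc* was lowest in Acute mouse 5, at 22.9 batch-adjusted CPM, where the other Acute mice ran from 26.6 to 30.7.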

How the results depend on the processing

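No gene of the 9 with an adjusted p passed in any alternative, with a lowest edgeR or DESeq2 adjusted p of 0.320, and no batch by drinking difference was called with RLE or upper quartile normalization, without a filter, with the higher filter or without any 1 mouse, the alternatives under which it was tested. *Aif1* falls below a mean of 100 counts, and DESeq2 with batch gave it no adjusted p against Water. DESeq2 after ComBat-seq gave none for *Aif1* and *Tmem119* in Chronic against Water (p = 0.354 and 0.707). Signs turned in 28 of 294 gene values. In Acute against Water, *Cx3cr1* (0.00092) was -0.00138 with DESeq2, -0.0026 with ComBat-seq, -0.0015 with RLE, -0.000196 with the higher filter, -0.00396 in batch 1 and -0.014 with the striatal covariate. In Chronic against Acute, *Tmem119* was 0.00371 with ComBat-seq, 6.51e-05 with RLE and 0.015 in batch 1. In batch 1, *Aif1* was 0.075 in Acute, and *C1qb* -0.015 and *Ctss* 0.049 in Chronic against Water, and the median of the 9 genes in Acute mice was 0.099. In batch 2, *Tmem119* was 0.0026, *C1qa* -0.084 and *Ctss* -0.020 in Acute against Water, and *P2ry12* 0.047, *Aif1* 0.081, *C1qa* 0.073 and *C1qb* 0.040 in Chronic against Acute. With the striatal covariate, added after the data were seen, *C1qa* was -0.00864 in Acute, *C1qa* 0.024 and *Ctss* 0.0056 in Chronic against Water, and *Csf1r* 0.0017, *Cx3cr1* 0.00339, *Tmem119* 0.0043, *C1qa* 0.033, *C1qb* 0.033 and *C1qc* 0.015 in Chronic against Acute. The cause was not tested.

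Leaving out 1 mouse turned the sign in 41 of 756 gene values. In Acute against Water the ranges were -0.13 to 0.0041 for *Aif1*, -0.0084 to 0.053 for *C1qa*, -0.013 to 0.021 for *Cx3cr1* and -0.029 to 0.0020 for *Tmem119*. In Chronic against Water they were -0.041 to 0.0099 for *C1qa* and -0.044 to 0.0061 for *Tmem119*. In Chronic against Acute they were -0.13 to 0.0026 for *Aif1*, -0.056 to 0.0094 for *C1qb*, -0.042 to 0.00011 for *P2ry12* and -0.029 to 0.021 for *Tmem119*. The median pair correlation ran from 0.208 to 0.277. Of the 10 genes most like the microglial mean, 7 were shared by rank correlation, 7 with group means removed and 10 with a filter at 10 counts.

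Replicate numbers of batch 2 did not pair the mice, since same-numbered mice correlated at -0.346 to 0.338, with 4 of 16 pairs over 0.1, and 1 of 17 mice correlated best with its own number. With a replicate block 0 genes were called, and the medians were 0.015, -0.018 and -0.039. The biological spread was larger than the counting error for all 9 genes, with the smallest gaps relative to it for *Tmem119* (5.99% against 5.62%) and *Aif1* (15.6% against 12.98%).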
